A study of Homo sapiens with 6 samples.

Results

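The 35 basement membrane genes described here encode the collagen IV and laminin chains, the nidogens, the heparan sulphate proteoglycans, the anchoring and FRAS/FREM proteins, and matricellular, crosslinking and receptor proteins of the sheet of matrix under epithelia. They were chosen by symbol, and each of the 35 had a row in the deposited table of 60546 gene identifiers. The cells were HCT-116, a human colon carcinoma cell line. They carried the viral vector PMSCV, either with the GOLPH3 coding sequence (HCT-116-PMSCV-GOLPH3, 3 libraries) or empty (HCT-116-PMSCV-Vector, 3 libraries), and the comparison asks how the transcriptomes of these lines differed. Both lines were grown in serum-containing DMEM, were labelled wild type in genotype, and were harvested in Trizol without a further agent. According to the study's methods, the cells of each group came from different generations of its stable line, so a p-value measures the spread between samples of a line and not between independently made lines. The number after P in the library titles was 8, 12 and 13 for GOLPH3 replicates 1, 2 and 3, and 12, 11 and 13 for Vector replicates 1, 2 and 3.

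A basement membrane is built on a polymer of laminin heterotrimers, each of an alpha, a beta and a gamma chain, and on a covalent network of collagen IV. Nidogens and perlecan link these networks, while integrins and dystroglycan tie them to the cell. The collagen IV chains are encoded by gene pairs that lie head to head, so that COL4A1 and COL4A2, COL4A3 and COL4A4, and COL4A5 and COL4A6 are each transcribed outward from a common stretch of DNA. COL4A1 and COL4A2 make the network found in nearly all tissues, and the other chains make networks of restricted tissues such as the kidney glomerulus.

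Of the 32 genes that were tested, 8 had lower and 2 had higher transcript levels in the libraries labelled GOLPH3 (limma adjusted p under 0.05). Over all genes tested, 4.12% were lower and 0.953% higher. The 8 lower genes were COL4A1 and COL4A2, LAMA1, NID1 and NID2, FREM2, SPARC and SMOC1. The 2 higher genes were LAMA5 and COL4A3, and neither was called without GOLPH3 replicate 2, GOLPH3 replicate 3 or Vector replicate 1. FREM2, SMOC1, COL4A2, COL4A1 and NID1 had between 0 and 6 reads in every library labelled GOLPH3, against 47 to 2418 reads in those labelled Vector.

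Sequences upstream of 5 transcription starts are shown first because the collagen IV pairs share their upstream DNA within a pair and differ in level between pairs, and because NID1 and LAMA5 are the lower and the higher member with the smallest p. They are RefSeq sequences on GRCh38.p14, written 5′ to 3′ on the strand named. The first is the whole interval of 126 bases between the RefSeq starts of COL4A1 (minus strand) and COL4A2 (plus strand), at chr13:110307158-110307283, given on the plus strand. The others are the 250 bases before the start of COL4A3 (chr2:227164374-227164623, plus), COL4A5 (chrX:108439588-108439837, plus), NID1 (chr1:236065091-236065340, minus) and LAMA5 (chr20:62367313-62367562, minus). Capitals mark 3 motifs on either strand, namely the GC box (GGGCGG or CCGCCC), bound by SP1-family factors, the CCAAT box (CCAAT or ATTGG), bound by NF-Y, and the E-box (CACCTG or CAGGTG), bound by Snail and ZEB factors. No marked match overlapped another.
COL4A1 to COL4A2: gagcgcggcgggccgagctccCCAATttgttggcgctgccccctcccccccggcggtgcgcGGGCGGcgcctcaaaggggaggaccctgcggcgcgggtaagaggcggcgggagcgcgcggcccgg
COL4A3: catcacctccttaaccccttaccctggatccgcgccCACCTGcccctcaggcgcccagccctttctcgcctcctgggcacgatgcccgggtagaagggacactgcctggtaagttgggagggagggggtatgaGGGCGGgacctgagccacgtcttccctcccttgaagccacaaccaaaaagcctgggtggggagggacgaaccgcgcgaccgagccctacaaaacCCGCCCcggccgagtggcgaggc
COL4A5: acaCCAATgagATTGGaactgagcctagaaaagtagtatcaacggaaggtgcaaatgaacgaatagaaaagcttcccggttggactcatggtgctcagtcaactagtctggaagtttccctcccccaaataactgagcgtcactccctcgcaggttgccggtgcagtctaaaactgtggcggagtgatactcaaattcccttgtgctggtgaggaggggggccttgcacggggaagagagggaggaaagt
NID1: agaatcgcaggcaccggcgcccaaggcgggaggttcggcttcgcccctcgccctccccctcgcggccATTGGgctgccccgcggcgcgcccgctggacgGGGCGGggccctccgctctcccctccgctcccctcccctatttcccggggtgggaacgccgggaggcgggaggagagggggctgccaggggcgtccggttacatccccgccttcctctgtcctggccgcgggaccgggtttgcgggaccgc
LAMA5: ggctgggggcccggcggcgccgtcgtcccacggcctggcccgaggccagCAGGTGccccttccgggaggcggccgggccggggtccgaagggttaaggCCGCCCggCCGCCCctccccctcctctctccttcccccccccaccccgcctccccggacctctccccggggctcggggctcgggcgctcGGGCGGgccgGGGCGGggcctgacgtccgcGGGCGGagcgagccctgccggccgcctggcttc

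The COL4A1–COL4A2 interval held 1 GC box, 1 CCAAT box and 20 CpG dinucleotides. The COL4A4 and COL4A3 starts were 418 bases apart and those of COL4A6 and COL4A5 379 bases apart. In windows running from 250 bases before to 50 after a start, COL4A1 and COL4A2 had 45 CpG each, which placed them at the 96.5 percentile of 35116 RefSeq windows with a median of 14. COL4A3 had 24 and COL4A4 had 29, whereas COL4A5 had 8. Of the 35 genes, 31 matched a window, with 38 windows in all, and HMCN1, LAMC3, AGRN and LAMA1 did not. The GC box was in 26 of these 38 windows (68.4%, against 45% of all windows), the CCAAT box in 15 (39.5%, against 34.6%) and the E-box in 8 (21.1%, against 20.6%). Some member windows overlap, namely those of COL4A1 and COL4A2 and windows of DAG1 and of LAMB3, so the same match can count more than once. Among the lower genes with a window the counts ran from 11 CpG in SPARC, 15 in FREM2, 24 in SMOC1, 25 in NID2 and 36 in NID1 to the 45 of COL4A1 and COL4A2, and the higher genes COL4A3 and LAMA5 had 24 and 41. Lower and higher members therefore had overlapping CpG counts, and a motif match is only a match of letters.

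The libraries held 15708846 to 21900764 reads. The deposited values are reads divided by a factor per library, called normalized reads here, and 3 reads, taken as the limit of detection for counting error only, correspond to 2.47 to 3.29 normalized reads. The GOLPH3 transcript was not higher in the libraries labelled GOLPH3. It had 1629.5, 1271.5 and 1383.5 normalized reads there and 1968, 1892 and 1472 under the Vector label (log2 fold change -0.31, standard error (SE) 0.27, limma adjusted p = 0.609). An exact two-sided permutation test gave p = 0.2, where the smallest p that 3 against 3 libraries allow is 0.1. Directions below therefore refer to the labels. Of 12 colon epithelial markers, 10 were tested and KRT19 and KRT18 were higher. Their summed level was 62851 to 134424 normalized reads under the GOLPH3 label and 30024 to 41155 under the Vector label, with KRT20 at 0 and CDX1 at no more than 3 reads in every library. Most of that sum was KRT8, KRT18 and KRT19. Of the 10 tested, 9 had a positive log2 fold change, while CDX2 was at -0.52 with overlapping groups. CDH17, VIL1, LGALS4 and CEACAM5 had at most 10 reads in any library. Fibroblast markers summed to 825 to 1517 against 488 to 811 normalized reads, nearly all of it COL1A1 (1129, 800 and 1499 against 601, 466 and 726, log2 fold change 0.91, limma adjusted p = 0.151), with DCN at 0 and COL1A2 and FAP at no more than 3 reads throughout, and PDGFRA was the 1 marker called, lower. Endothelial markers summed to 28.9 to 51.5 against 31.8 to 47.2, and 0 of 7 tested were called by limma at an adjusted or an unadjusted p under 0.05. A list of 7 genes typical of the human embryonic kidney line HEK293, chosen with results of these data known, summed to 117 to 140 normalized reads under the GOLPH3 label and 1982 to 6339 under the Vector label. IRS4, an insulin receptor substrate abundant in that line, was at 0 in every library labelled GOLPH3 and at 1412, 1006 and 4831 normalized reads in Vector replicates 1, 2 and 3. The neurofilament genes NEFL and NEFM were also lower, while LHX1 and INA had no more than 3 reads in any library. PAX2, which made up nearly all of the sum under the GOLPH3 label, had 134, 112 and 130 normalized reads there and 104, 88.7 and 148 under the Vector label, so its groups overlapped (log2 fold change 0.17, limma adjusted p = 0.853). NEFH had 2 to 5 reads in every library. The part of these cell-type differences in the results below was not tested. In bulk RNA, fewer cells of a type and less RNA per cell cannot be told apart.

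Of the 35 genes, 32 reached 1 normalized read in 3 or more libraries and were tested with limma on log2(normalized reads + 1), in a fit over 26536 genes. LAMB4, a laminin beta chain, and SMOC2, a calcium-binding matricellular protein, were at 0 reads in every library. FREM1, a FRAS/FREM matrix protein, had 3, 0 and 14 reads under the Vector label and 0 in every library labelled GOLPH3, and was not tested either. With p-values adjusted over all genes tested, 2 of the 32 were higher and 8 lower, against 0.953% and 4.12% of all genes tested. At an unadjusted p under 0.05, 8 were higher and 10 lower, against 7.51% and 10.1%. The groups did not overlap in 6 higher members (COL4A3, COL4A4, LAMA5, LAMB2, HSPG2 and FRAS1) and 11 lower ones (the 8 above, with LAMA4, FBLN1 and HMCN1), against 9.2% and 12.8% of all genes tested. The median log2 fold change of the 32 was -0.21, with 15 positive, beside 0.02 for all genes tested. It was also -0.21 with silent genes set to the fold that 3 reads per library allow. That setting could not move it, because the tested members it changed, COL4A2, FREM2 and SMOC1, lay far below the median either way. Within the libraries at P12 the median was -0.02 and within those at P13 it was -0.14. Leaving out GOLPH3 replicate 2 reduced the calls to 6 lower and 0 higher, and without GOLPH3 replicate 3 or Vector replicate 1 there were 8 lower and 0 higher. Adding 1 before taking logs shrinks the fold changes of genes with few reads, compared with adding 0.1. They can still be larger than in other fits, as for LAMA1 (-6.70 here and -6.45 with DESeq2). Where a member is said to have the highest mean of its group of genes, the same held per kilobase of exon under each label.

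**Figure D1:**
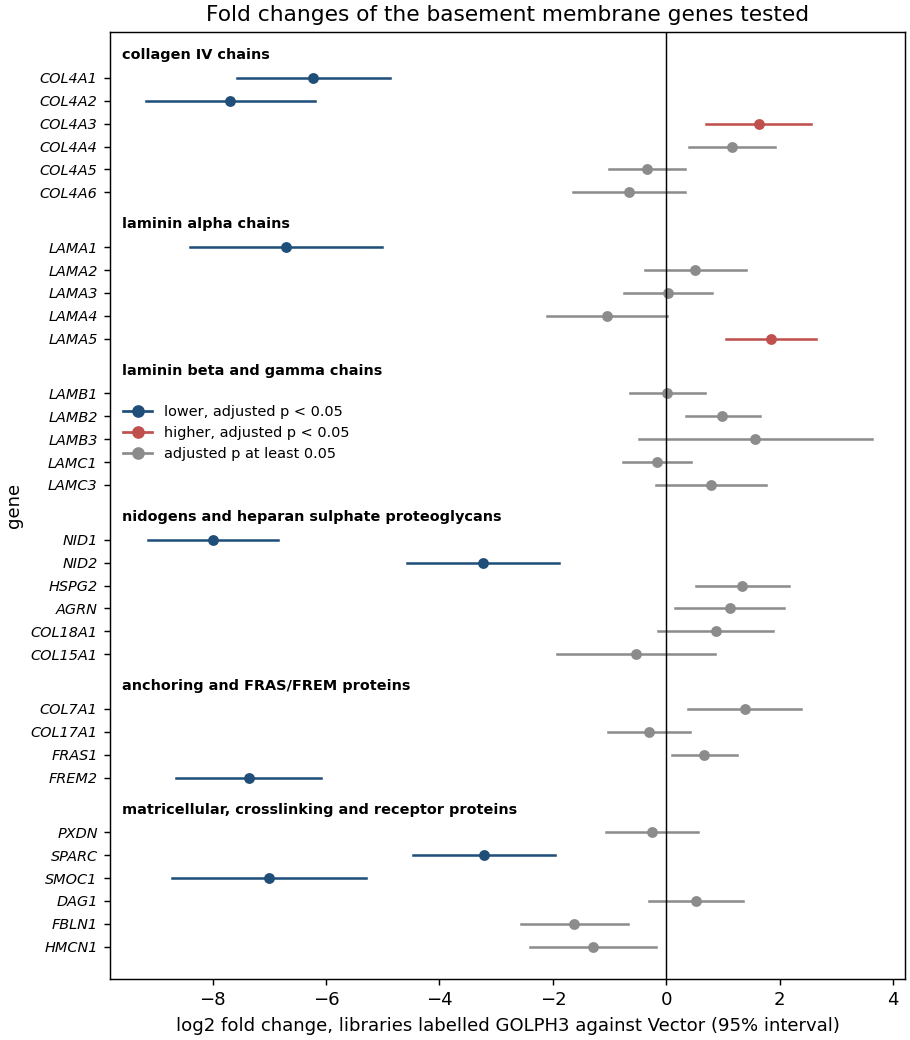
Log2 fold changes of the 32 basement membrane genes tested (x axis, libraries labelled GOLPH3 against Vector, 3 libraries each), grouped by role, with 95% intervals from limma. Blue and red points are the 8 lower and 2 higher genes with an adjusted p under 0.05, and grey points are the others, whose log2 fold changes lay between -1.62 (FBLN1) and 1.57 (LAMB3).

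The collagen IV chains split by gene pair. COL4A1 (ENSG00000187498, chromosome 13, 110148963 to 110307233, minus strand in GENCODE 29 on GRCh38) had 6.44, 2.47 and 2.14 normalized reads under the GOLPH3 label and 324, 150 and 692 under the Vector label. The groups were far apart (log2 fold change -6.23, SE 0.62, limma adjusted p = 5.09e-05). COL4A2 (ENSG00000134871, chromosome 13, 110305812 to 110513209, plus strand), its partner in the trimer, had 1.07, 2.47 and 2.14 normalized reads against 613.5, 195 and 1655. Its 6 reads in all against 2702 gave a ratio of 455 (exact 95% counting interval 209 to 1241, limma adjusted p = 2.29e-05). This interval pools the reads and covers counting error only. It leaves out the spread between libraries, which had 596, 178 and 1928 reads in Vector replicates 1, 2 and 3. The annotated COL4A1 and COL4A2 overlap at their 5′ ends on opposite strands, and COL4A2 also overlaps the antisense genes COL4A2-AS1 and COL4A2-AS2. Whether the counting used strand is not given in the sources used here, so reads in the overlaps cannot be assigned with certainty. The same limit holds for other called members. Among them, LAMA5 overlaps 3 annotated genes, 2 of them on the opposite strand, and on that strand NID2 overlaps RTRAF and SPARC overlaps CLMAT3.

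COL4A3 and COL4A4, the chains of the glomerular network, had the opposite order. COL4A3 (ENSG00000169031, chromosome 2, 227164565 to 227314792, plus strand) had 204, 129 and 175 normalized reads under the GOLPH3 label and 49.4, 82.2 and 36.9 under the Vector label, so its groups did not overlap (log2 fold change 1.63, SE 0.42, limma adjusted p = 0.0479). COL4A3 lost its call in 8 of 14 alternative fits, with limma adjusted p = 0.132, 0.141 and 0.195 without GOLPH3 replicate 1, 2 or 3 and 0.17 and 0.166 without Vector replicate 1 or 3. COL4A4 had 425, 326 and 331 normalized reads against 148, 227 and 121, and the groups did not overlap. The difference did not pass the test (log2 fold change 1.16, SE 0.35, limma adjusted p = 0.0852). It did without Vector replicate 2 (1.41, limma adjusted p = 0.0498) and with DESeq2 on the recovered reads (1.13, adjusted p = 0.038). COL4A5, a chain of the kidney and of smooth muscle, had 676, 466 and 556 normalized reads against 548, 732 and 887, so its groups overlapped (log2 fold change -0.34, 95% interval -1.01 to 0.33). Per kilobase it was above the other chains in every library but Vector replicate 3, where COL4A2 stood at 85.8 and COL4A5 at 74.8 normalized reads per kilobase. Without division by length, COL4A2 was above COL4A5 in Vector replicate 1 as well (613.5 against 548 normalized reads). COL4A6 overlapped likewise, at 92.3 to 203 against 116 to 296 normalized reads.

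Per kilobase of exon, the composition of the family lay apart by label for the first 2 gene pairs. The length used was the union of all annotated exons of a gene (19.29 kilobases for COL4A2, 11.87 for COL4A5). The size of a share therefore depends on the annotation, while the same length was used in every library. COL4A1 and COL4A2 together made up 0.373%, 0.275% and 0.233% of the collagen IV signal in the libraries labelled GOLPH3 and 37.7%, 16.1% and 51.9% under the Vector label. The share of COL4A3 and COL4A4 was 48.9%, 43% and 47.4% against 14.1%, 25% and 6.28%. COL4A5 and COL4A6 took overlapping parts of the signal, at 50.7%, 56.7% and 52.4% against 48.2%, 58.9% and 41.8%. The sum over all 6 chains was 117 ± 13.4 normalized reads per kilobase (SD, n = 3) against 175 ± 70.4 (SD, n = 3). Shares within a family are tied to each other, so a loss of COL4A1 and COL4A2 raises the others by construction.

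**Figure D2:**
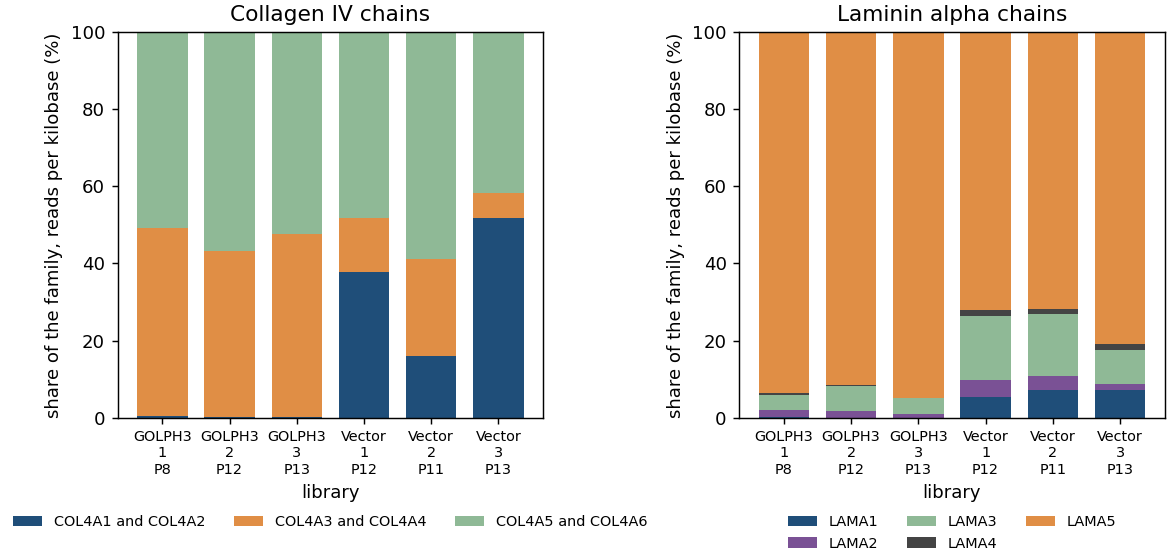
Share of the normalized reads per kilobase (y axis, percent) that each collagen IV gene pair (left) or laminin alpha chain (right) took in each of the 6 libraries, with the P number under each library. COL4A1 and COL4A2 are visible only in the libraries labelled Vector (16.1% to 51.9%), and LAMA5 lies between 91.6% and 94.8% in the libraries labelled GOLPH3 and between 71.8% and 80.9% in the others.

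The laminin alpha chains give each laminin its receptor specificity. LAMA5 (ENSG00000130702, chromosome 20, 62307955 to 62367312, minus strand), the broad alpha chain of adult epithelia, was the most abundant of them and rose. It had 9723, 13754 and 15959 normalized reads under the GOLPH3 label and 3625, 2268 and 5668 under the Vector label, so the lowest of the former stood above the highest of the latter (log2 fold change 1.84, SE 0.36, limma adjusted p = 0.00938). The LAMA5 call was lost without GOLPH3 replicate 2 (1.79, limma adjusted p = 0.149), GOLPH3 replicate 3 (1.68, limma adjusted p = 0.0613) or Vector replicate 1 (1.84, limma adjusted p = 0.0515). LAMA1 (ENSG00000101680, chromosome 18, 6941744 to 7117814, minus strand), the alpha chain of the early embryo, fell. It had 10.7, 0 and 2.14 normalized reads against 297.5, 248.7 and 558.7 (log2 fold change -6.70, SE 0.77, limma adjusted p = 0.000169). LAMA1 thus contributed at most 0.0931% of the alpha-chain signal per kilobase in any library labelled GOLPH3, and 5.33% to 7.18% under the Vector label.

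The other alpha chains did not pass the test. LAMA4, a chain of vascular and mesenchymal laminins, had 30.1, 23.1 and 26.7 normalized reads against 58.7, 35.1 and 84.1, with no overlap between groups (log2 fold change -1.05, limma adjusted p = 0.288). LAMA3, the epithelial chain of hemidesmosomal laminin, had 436 to 1007 against 523 to 849, and LAMA2, the muscle chain, 124 to 186 against 77.2 to 166. Both overlapped, with log2 fold changes of 0.03 and 0.51, and that of LAMA3 turned negative without GOLPH3 replicate 2 or Vector replicate 2 (-0.26 and -0.14).

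Of the beta and gamma chains, 0 of 5 tested passed the adjusted threshold in limma, and 1 did at an unadjusted p under 0.05. DESeq2 and edgeR on the recovered reads gave adjusted p-values on the same side for each of the 5. LAMB2, the beta chain that replaces LAMB1 in many mature basement membranes, was the 1 with groups that did not overlap, at 3126, 4352 and 5023 normalized reads against 2317, 1549 and 2406 (log2 fold change 0.99, SE 0.30, limma adjusted p = 0.0896), and it passed with the P number as a covariate (1.15, limma adjusted p = 0.0147). LAMB3, the beta chain of hemidesmosomal laminin, had the widest spread of these chains. It had 1694, 34428 and 6673 normalized reads in GOLPH3 replicates 1, 2 and 3 and 8668, 1010 and 1696 in Vector replicates 1, 2 and 3. Its level exceeded that of LAMC1 per kilobase in GOLPH3 replicates 2 and 3 and Vector replicate 1 and lay below it in the other libraries. In each group the library at P12 was the highest, and libraries within a group differed by up to 20.3-fold. Its log2 fold change of 1.57 (95% interval -0.49 to 3.63, limma adjusted p = 0.433) was 1.99 and 1.98 for the libraries at P12 and at P13, and dropped to 0.45 when GOLPH3 replicate 2 was left out. With the P number as a block, an alternative chosen after seeing the data that rests on these pairs, LAMB3 passed (1.98, limma adjusted p = 5.09e-14). P8 and P11 had a single library each, so this p rests largely on variance borrowed across genes. The same fit called 6082 genes, against 1346 without the block.

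The groups of LAMB1 and the gamma chains overlapped. LAMB1, the widely used beta chain, had 891 to 1445 normalized reads against 887 to 1360 (log2 fold change 0.02, and -0.02 under quantile normalization). LAMC1, the gamma chain of most laminins, had 3118 to 4526 against 3645 to 4484 (log2 fold change -0.16, 95% interval -0.76 to 0.43). LAMC1 made up 87.5% to 96.8% of the signal of LAMC1 and LAMC3 per kilobase in the 6 libraries. LAMC3 itself had 230 to 449 normalized reads against 109 to 348 (log2 fold change 0.78).

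The nidogens, which bridge laminin and collagen IV, both fell. NID1 (ENSG00000116962, chromosome 1, 235975830 to 236065162, minus strand) had 2.15, 4.95 and 3.20 normalized reads under the GOLPH3 label and 1124, 551 and 2075 under the Vector label. This was the smallest p among the members (log2 fold change -7.99, SE 0.52, limma adjusted p = 3.08e-06), and the call held in 14 of 14 alternative fits. NID2 (ENSG00000087303, chromosome 14, 52004803 to 52069228, minus strand) had 23.6, 11.5 and 11.7 normalized reads against 144, 63.5 and 356. Its groups were also separate, and it kept more reads than NID1 in every library labelled GOLPH3 (log2 fold change -3.24, SE 0.61, limma adjusted p = 0.00742). The NID2 call was lost without GOLPH3 replicate 2 (-3.08, limma adjusted p = 0.139) or Vector replicate 3 (-2.62, limma adjusted p = 0.0745).

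The heparan sulphate proteoglycans, which bind growth factors and link matrix to cells, did not pass the limma test described above. HSPG2, which encodes perlecan, had 2005, 1764 and 2701 normalized reads against 677, 572 and 1515, with no overlap (log2 fold change 1.34, SE 0.37, limma adjusted p = 0.0654). It passed without Vector replicate 3 (1.77, limma adjusted p = 0.0203) and in 4 other alternative fits. AGRN, which encodes agrin and had the highest mean of this group, had 4183, 9925 and 9710 normalized reads against 4145, 1807 and 5203. GOLPH3 replicate 1 lay inside the range of the libraries labelled Vector (log2 fold change 1.12, limma adjusted p = 0.199), and AGRN passed with the P number as a covariate (1.45, limma adjusted p = 0.0122). COL18A1, the precursor of endostatin, had 1294 to 3031 against 539 to 1940 normalized reads (log2 fold change 0.87). COL15A1, its relative, had 2 to 6 reads in every library, too few to show a difference at this depth.

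The FRAS/FREM proteins form a complex at the epithelial basement membrane, of which FREM2 alone passed the test. FREM2 (ENSG00000150893, chromosome 13, 38687129 to 38887131, plus strand) had 0 reads in all 3 libraries labelled GOLPH3 and 137, 109 and 294 normalized reads in those labelled Vector. It was at least 60.6-fold lower, taking 3 reads per library as the limit (limma adjusted p = 1.12e-05). FRAS1, which had the highest mean of this group, had 2583, 2200 and 1981 normalized reads against 1469, 1409 and 1341. Its groups did not overlap, but the difference did not pass (log2 fold change 0.67, SE 0.26, limma adjusted p = 0.196). COL7A1, the anchoring fibril collagen, had 283 to 511 normalized reads against 92.6 to 302 (log2 fold change 1.38, limma adjusted p = 0.12), and passed without Vector replicate 3 (1.91, limma adjusted p = 0.0372). COL17A1, the transmembrane collagen of hemidesmosomes, had 190 to 346 against 313 to 382 (log2 fold change -0.30).

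Among the matricellular and crosslinking genes, SPARC and SMOC1 fell. SPARC (ENSG00000113140, chromosome 5, 151661096 to 151687165, minus strand), a collagen-binding glycoprotein, had 11.8, 12.4 and 19.2 normalized reads against 153, 61.3 and 285 (log2 fold change -3.21, SE 0.57, limma adjusted p = 0.00477). The SPARC call was lost without GOLPH3 replicate 2 (-3.12, limma adjusted p = 0.105) or Vector replicate 3 (-2.70, limma adjusted p = 0.0618). SMOC1 (ENSG00000198732, chromosome 14, 69854131 to 70032366, plus strand), a relative of SPARC found in basement membranes, had 0, 1.65 and 0 normalized reads against 248, 51.5 and 421. Its 2 reads in all against 779 gave a ratio of 394 (exact 95% counting interval 109 to 3255, limma adjusted p = 0.000138). As for COL4A2, this interval leaves out the spread between libraries.

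FBLN1 and HMCN1 were below the libraries labelled Vector in every library labelled GOLPH3 without passing the test. FBLN1, a fibulin that binds nidogen and laminin, had 332, 271 and 385 normalized reads against 1128, 489 and 1850 (log2 fold change -1.62, SE 0.43, limma adjusted p = 0.053). It passed in 6 of 14 alternative fits, among them the fit without Vector replicate 2 (-2.15, limma adjusted p = 0.00641). HMCN1, which encodes hemicentin, had 27.9, 11.5 and 16.0 normalized reads against 38.1, 41.6 and 53.2 (log2 fold change -1.29, limma adjusted p = 0.205). DAG1, which encodes the laminin receptor dystroglycan and had the highest mean of this group, had 5709, 2330 and 5356 against 2035, 3162 and 3668. Its groups overlapped (log2 fold change 0.53, limma adjusted p = 0.519), as did those of PXDN, the peroxidase that crosslinks collagen IV, at 543 to 969 against 572 to 1389 normalized reads.

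**Figure D3:**
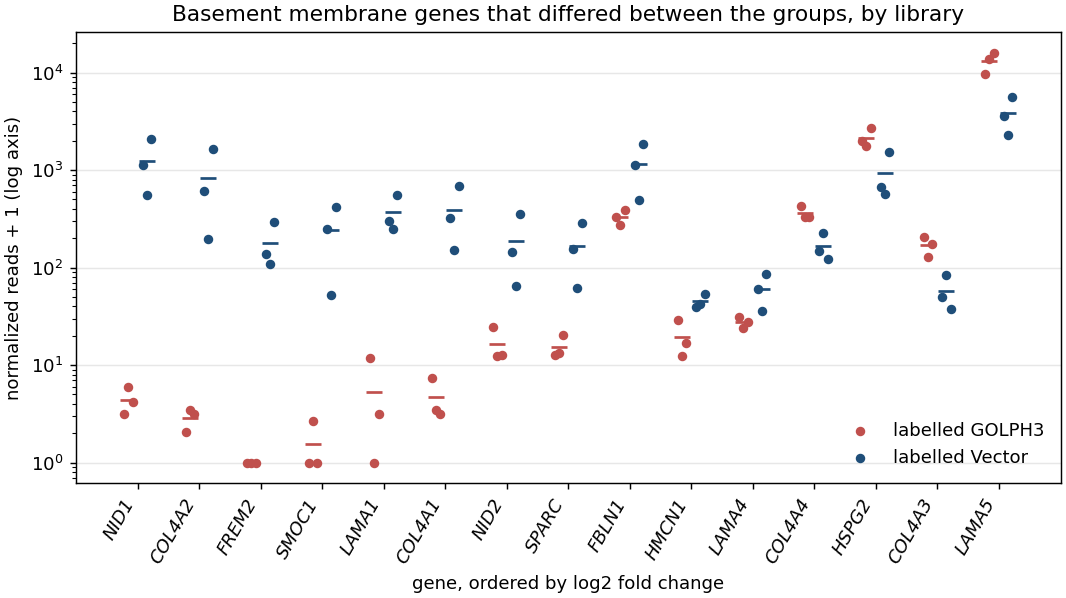
Normalized reads + 1 (y axis, log scale) in each library for the 15 basement membrane genes that passed the test or whose groups did not overlap with an absolute log2 fold change over 1, ordered by log2 fold change. Points are libraries, short lines are means of 3 libraries, and the points of the groups do not overlap for any of the 15 genes, with LAMA5 at 9723 to 15959 under the GOLPH3 label and FREM2 at 0 reads there.

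The 8 lower members shared an order among the libraries labelled Vector. Replicate 2 was lowest and replicate 3 highest for each of the 8, which is also the order of their P numbers, 11, 12 and 13. The ratio of replicate 3 to replicate 2 ran from 2.25 for LAMA1 and 2.71 for FREM2 to 8.18 for SMOC1 and 8.49 for COL4A2. The same order was found in 19 of the 32 members tested (59.4%), in 25.1% of all genes tested, and in 677 of the 1093 genes called lower (61.9%). In the HEK293 list 2 of the 6 genes tested had it, among them IRS4, while NEFL and NEFM were lowest in Vector replicate 1. The source of the order was not tested.

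**Figure D4:**
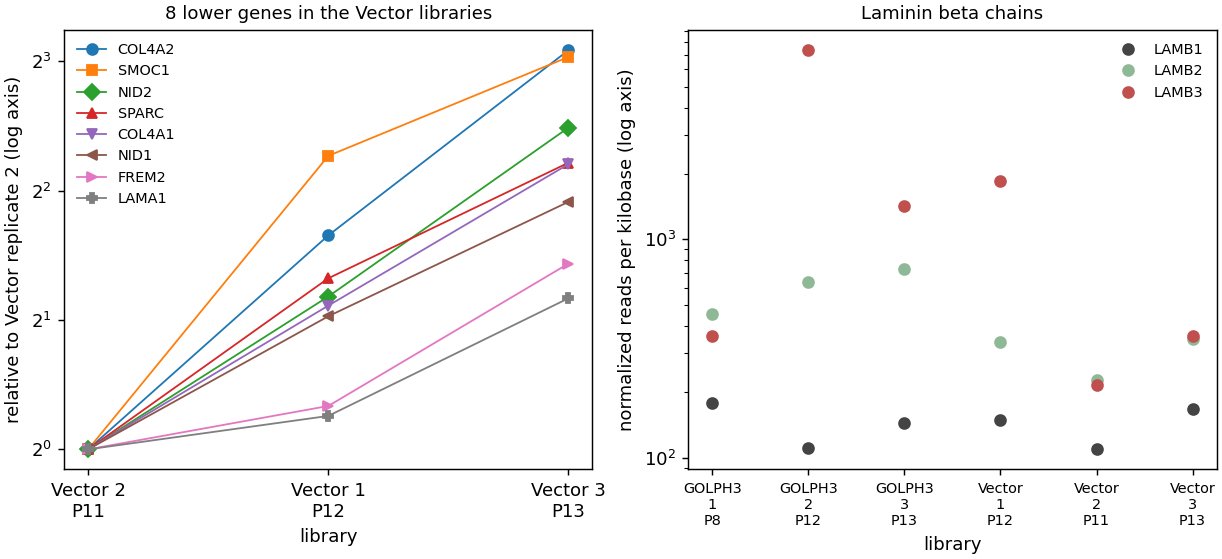
Left, normalized reads of the 8 lower members in the libraries labelled Vector relative to Vector replicate 2 (y axis, log scale), with libraries on the x axis in the order of their P numbers. Right, normalized reads per kilobase of the laminin beta chains (y axis, log scale) in the 6 libraries, where LAMB3 is highest in the P12 library of each group (7344 and 1849) and LAMB1 stays between 109 and 178.

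The receptors of the basement membrane included 3 called genes. Of 16 listed, 15 were tested (DDR1 was at 0 in every library), with 2 higher and 1 lower, 12 positive and a median log2 fold change of 0.91. Beside this list and those that follow, 0.953% of all genes tested were called higher and 4.12% lower, with a median of 0.02. ITGB4 and ITGA3, integrin subunits that bind epithelial laminins, were higher. ITGB4 had 6975, 8823 and 13315 normalized reads against 2752, 1773 and 3376 (log2 fold change 1.88, limma adjusted p = 0.00519). ITGA3 had 10294, 28462 and 23190 against 7477, 3059 and 5009 (log2 fold change 1.96, limma adjusted p = 0.0181). ITGA8, an integrin subunit whose ligand is nephronectin, had at most 3 reads in each library labelled GOLPH3 and 56.6, 16.4 and 61.8 normalized reads in those labelled Vector (limma adjusted p = 0.00287). Without GOLPH3 replicate 2 or Vector replicate 3 the calls in this list dropped to 1.

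Proteases and inhibitors that act on the basement membrane had 1 higher and 3 lower genes among 15 tested of 16 listed, with a median log2 fold change of 0.18. MMP3 was not tested. ADAMTS1, a metalloprotease that cleaves proteoglycans and nidogens, had at most 2 reads in each library labelled GOLPH3 and 3581, 3433 and 6977 normalized reads in those labelled Vector (limma adjusted p = 5.07e-07). MMP2, which degrades collagen IV, had at most 3 reads against 202, 61.3 and 292 normalized reads (limma adjusted p = 0.00012). TIMP3, a matrix-bound inhibitor of metalloproteases, had 96.6, 99.0 and 166 against 429, 284 and 618 (log2 fold change -1.85, limma adjusted p = 0.0146). MMP14, the membrane protease that activates MMP2, was the higher gene, at 269, 231 and 563 against 81.3, 105 and 119 normalized reads (log2 fold change 1.69, limma adjusted p = 0.0302). Without GOLPH3 replicate 2, Vector replicate 1 or Vector replicate 3 there were 2 calls, both lower.

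Genes that make collagen IV and dystroglycan ready for the matrix were called at near the share of all genes tested. That share was 0.953% higher and 4.12% lower. Of 22 collagen folding, modification and secretion genes tested, 0 were higher and 1 lower (median log2 fold change 0.24). The lower gene was COLGALT2, a collagen galactosyltransferase, with 7.51, 8.25 and 4.27 normalized reads against 178, 36.1 and 218 (log2 fold change -3.93, limma adjusted p = 0.00362). Its call was lost without GOLPH3 replicate 2 or Vector replicate 3, which left 0 calls in that list, and 3 genes were called without GOLPH3 replicate 1. Of 13 genes that glycosylate dystroglycan, limma called 0 at an adjusted p under 0.05 (median log2 fold change 0.04), while 1 higher and 3 lower had an unadjusted p under 0.05 and DESeq2 called 3 and edgeR 0. Of 18 further basement membrane components, 16 were tested (TINAG and FREM3 were not), with 0 higher and 3 lower (median log2 fold change 0.12). SPOCK1, a secreted proteoglycan, had 20.4, 16.5 and 12.8 normalized reads against 124, 92.0 and 111 (limma adjusted p = 0.00292). EGFLAM, which encodes the dystroglycan ligand pikachurin, had at most 1 read against 23.7, 7.67 and 32.6 normalized reads (limma adjusted p = 0.00547). FBLN2, a fibulin, had 7.51, 0.825 and 14.9 against 89.6, 20.8 and 159 (limma adjusted p = 0.0448). In this list 1 gene was called without GOLPH3 replicate 2 and 1 without Vector replicate 3.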

How the data were processed

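RNA-seq libraries of HCT-116 cells with PMSCV-GOLPH3 (3) or PMSCV-Vector (3) were compared. The submitters' processing notes name fastp 0.20.0, HISAT2 2.1.0, featureCounts 1.6.1, Cufflinks, DESeq2 and GRCh38, and the annotation release and strand setting are not given in the sources used here. The signal deposited by the authors is a normalized value per gene, not corrected for length. Between 99.98% and 100.00% of the values in a library were whole multiples of 1 step (tolerance 0.02), from which reads were recovered. Of 60590 rows, 44 repeated an identifier and were summed. Identifiers were matched to GENCODE 29 (96.4%), and exon lengths, the union of all annotated exons of a gene, came from it.

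The members and lists were chosen with earlier results of these data known. Limma 3.58.1 in R 4.3.3 was fitted to log2(value + 1) of genes that reached a value of 1 in 3 or more libraries (two-sided, Benjamini-Hochberg over all genes tested, called at an adjusted p under 0.05). Values per sample were given for members that were called, whose groups did not overlap with an absolute log2 change over 1, or that had the highest mean of their family, and of each other list the 3 called genes with the smallest p were named. DESeq2 1.42.0 and edgeR 4.0.16 on recovered reads, quantile normalization, another pseudocount, other filters, a replicate block, the P number and leaving out each library were alternatives. An adjusted p that DESeq2 did not give was left out. The scripts were tested on simulated data.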

Additional observations from a re-analysis of the deposited data

How the results depend on the processing

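Depth limits genes near 3 reads per library, and 3 samples of 1 line per group limit the rest. NID1, FREM2, COL4A2, COL4A1, SMOC1 and LAMA1 kept their calls in the 14 alternatives other than the P number block. Over all genes, limma's 1346 calls became 4663 at an unadjusted p under 0.05, 2399 with the P number as a covariate, 581 to 1337 with a library left out, 1991 with DESeq2 and 1113 with edgeR. The 10 member calls became 18 unadjusted and 6 to 12 with a library left out. Unadjusted p, the P covariate and leave-one-out gave 9, 8 and 1 to 4 calls for receptors, 5, 3 and 0 to 3 for collagen folding, and 8, 5 and 1 to 4 for other components. Proteases had 7 unadjusted and 2 to 4 with a library left out. Dystroglycan glycosylation had 4 unadjusted, 3 with DESeq2, 1 without a filter and 1 with the P covariate, and collagen folding had 2 with DESeq2. With a library left out, log2 changes that turned ranged from -0.26 to 0.34 for LAMA3, -0.16 to 0.20 for LAMB1 and -0.57 to 0.07 for PXDN. LAMB1 was also -0.02 with quantile normalization and -0.03 with the P covariate. The causes were not tested.

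Libraries of replicates 1 and 2 shared only the replicate number, and those of replicate 3 also shared P13 (correlations of deviations -0.23, -0.15 and 0.26). The largest correlation, 0.33, was between GOLPH3 replicate 1 (P8) and Vector replicate 2 (P11), which shared neither number. With the replicate number as a block there were 1081 calls, 2 members higher and 9 lower, and 1 dystroglycan glycosylation gene. A block on the P number, chosen after seeing the data, rests on the P12 and P13 pairs (correlations 0.26 and 0.26), as P8 and P11 had a single library each. Its p-values therefore depend largely on variance borrowed across genes. This block gave 6082 calls over all genes, 23 for members, 13 for receptors, 5 for dystroglycan glycosylation, 6 for collagen folding, 8 for proteases and 8 for other components, with LAMB1 at -0.32 and COL17A1 at 0.05.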
